A study of Homo sapiens with 34 samples.

Results

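*BHLHE40* and *BHLHE41* encode DEC1 and DEC2, a pair of paralogous transcriptional repressors, and were followed in a human cell line in which the pentose phosphate pathway (PPP) was inhibited. They are 2 of the 28690 loci of the expression tables, found as the loci that carry these symbols, and they were picked because their levels lay on opposite sides of the control under 6AN (6-aminonicotinamide), an inhibitor of the PPP. The difference between 6AN and control was therefore what chose them, and it is given below as a description with no test. Time courses and paralog correlations within a condition, and BMAL1 and CLOCK binding at their sites, are apart from that difference. The ratio and the sum of the paralogs between conditions are not. The members were chosen with earlier results of these data known.

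DEC1 and DEC2 are basic helix-loop-helix (bHLH) proteins with an Orange domain. They bind the E-box CACGTG, the element through which the BMAL1/CLOCK heterodimer activates *PER*, *CRY*, and *NR1D* genes, and repress transcription from it. BMAL1/CLOCK in turn activates the DEC genes, so that the paralogs form a negative loop beside that of PER and CRY. Both genes are also known to be induced by hypoxia through HIF1.

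All samples came from U2OS cells, a human osteosarcoma line, that stably carried the *Bmal1*:*luc* reporter, with no second line or clone for comparison. For RNA sequencing (RNA-seq), cells synchronized with dexamethasone were cultured with 5 mM 6AN or with DMSO, the vehicle, and RNA was taken every 4 hr at 12 time points labelled 0 to 44 hr, which gave 24 libraries with 1 for each condition and time. For chromatin immunoprecipitation sequencing (ChIP-seq), chromatin was taken after 24 hr with 6AN at 5 mM or with DMSO, and 10 libraries covered BMAL1, CLOCK, H3K9ac, H3K4me3, and input in each condition, again with 1 each. RNA was extracted in triplicate in the study, and the sources used here do not say how the extracts were combined into 1 library. Nor do the sample labels give how long RNA-seq cells had been in 6AN, so a time label is not read as hours of treatment.

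Expression is given as FPKM, fragments counted per length of transcript and per depth of library, which allows levels of different genes to be set side by side. The expressed set held the 13979 loci with a mean FPKM of at least 1 over the 24 libraries. Read totals were not part of the tables, and from the smallest steps between low FPKM values the depth of a library lay between 0.61 and 1.42 times the median over all 24. Of the 9 osteoblast lineage markers examined, 6 were in the expressed set, among them *RUNX2* at 14.0 ± 1.99 FPKM in DMSO and 13.9 ± 1.61 FPKM in 6AN (SD over 12 time points). *COL1A1*, *SPARC*, and *ALPL* were lower in 6AN at all 12 time points and *SPP1* was higher at all 12. Over all expressed loci, 20.4% were lower and 13.0% higher at all 12. *BGLAP* was measured as part of a locus that also holds *PMF1*. *SP7*, *COL1A2*, and *IBSP* had mean levels of at most 0.042 FPKM in either condition. No marker of the other cell types was in the expressed set, with *EPCAM* at 1.02 and *PECAM1* at 0.37 FPKM in DMSO, while *PTPRC* matched 2 loci and was left out.

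The promoters of both genes lay within sites that were bound by BMAL1 and CLOCK, and they are shown because the shared element differs in where it sits. The 250 bases before the RefSeq start of each gene (GRCh38.p14) are printed 5′ to 3′ on the strand of the gene, with the E-box CACGTG in capitals. The *BHLHE40* window is chr3:4979187-4979436 on the plus strand and the *BHLHE41* window is chr12:26125038-26125287 on the minus strand.
BHLHE40: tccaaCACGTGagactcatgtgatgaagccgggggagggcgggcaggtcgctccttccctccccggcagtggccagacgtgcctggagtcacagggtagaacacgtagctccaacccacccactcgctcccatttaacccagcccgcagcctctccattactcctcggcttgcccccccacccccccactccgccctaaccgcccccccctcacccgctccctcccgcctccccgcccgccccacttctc
BHLHE41: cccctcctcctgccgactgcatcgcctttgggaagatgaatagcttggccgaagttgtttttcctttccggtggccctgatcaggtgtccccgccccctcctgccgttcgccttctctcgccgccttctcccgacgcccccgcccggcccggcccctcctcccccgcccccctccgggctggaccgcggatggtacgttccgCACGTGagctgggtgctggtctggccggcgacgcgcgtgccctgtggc

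Each promoter held 1 CACGTG, which reads the same on both strands. Its first base was at -245 relative to the start of *BHLHE40* and at -48 relative to the start of *BHLHE41*. Over windows of 250 bases before to 50 bases after the start, CACGTG was present in 7.26% of 35116 RefSeq promoters and in 47.2% of the 265 windows that lay wholly within a shared BMAL1/CLOCK site of 6AN. A CATGTG, searched on both strands, began at -234 relative to the start of *BHLHE40* without overlapping its CACGTG, and was present in 11.1% of all promoters. Neither window held CACGTT on either strand, which 5.34% of promoters did. The printed windows were similarly rich in G and C, at 68.4% for *BHLHE40* and 70.4% for *BHLHE41*.

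In DMSO, *BHLHE40* was the more abundant paralog. The *BHLHE40* locus (chr3:4896808-4985180, hg38) overlaps *BHLHE40-AS1*, an antisense RNA, and since the use of strand in counting is not given in the sources used here, reads of the antisense gene cannot be told apart from those of *BHLHE40*. The locus reached well upstream of the RefSeq gene, which spans chr3:4979437-4985323. *BHLHE40* was measured in DMSO at 75.7 FPKM at 0 hr, 53.4 at 4 hr, 53.9 at 8 hr, 62.8 at 12 hr, 61.2 at 16 hr, 59.2 at 20 hr, 53.4 at 24 hr, 50.4 at 28 hr, 40.9 at 32 hr, 48.7 at 36 hr, 49.8 at 40 hr, and 46.6 at 44 hr. The 0 hr library was the highest and the 32 hr library the lowest, and the mean was 54.7 ± 9.08 FPKM (SD, n = 12 time points).

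In 6AN, *BHLHE40* was measured at 110.9 FPKM at 0 hr, 110.6 at 4 hr, 88.9 at 8 hr, 90.5 at 12 hr, 82.3 at 16 hr, 92.9 at 20 hr, 82.7 at 24 hr, 96.0 at 28 hr, 101.2 at 32 hr, 83.0 at 36 hr, 87.2 at 40 hr, and 99.1 at 44 hr. The first 2 libraries were the highest, the lowest was that of 16 hr, and every 6AN library lay above every DMSO library. The mean was 93.8 ± 10.1 FPKM (SD, n = 12). *BHLHE40-AS1* was low, with 0.69 ± 0.31 FPKM in DMSO and 1.10 ± 0.41 FPKM in 6AN (SD, n = 12 each).

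*BHLHE41* (chr12:26120025-26125070, hg38) was measured in DMSO at 24.5 FPKM at 0 hr, 29.4 at 4 hr, 27.9 at 8 hr, 23.2 at 12 hr, 22.1 at 16 hr, 25.7 at 20 hr, 31.2 at 24 hr, 32.9 at 28 hr, 30.7 at 32 hr, 30.0 at 36 hr, 31.5 at 40 hr, and 32.8 at 44 hr. The 6 libraries from 24 hr on were the highest of the course, and the 16 hr library was the lowest. The mean was 28.5 ± 3.74 FPKM (SD, n = 12).

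In 6AN, *BHLHE41* was measured at 8.32 FPKM at 0 hr, 9.03 at 4 hr, 9.17 at 8 hr, 6.70 at 12 hr, 5.61 at 16 hr, 5.23 at 20 hr, 5.46 at 24 hr, 4.80 at 28 hr, 6.89 at 32 hr, 6.65 at 36 hr, 4.71 at 40 hr, and 4.42 at 44 hr. The first 3 libraries were the highest and the 44 hr library the lowest, and every 6AN library lay below every DMSO library. The mean was 6.42 ± 1.68 FPKM (SD, n = 12). In bulk RNA, fewer cells that express a gene and less RNA per cell cannot be told apart. Of the 6 expressed osteoblast lineage markers, 3 were lower in 6AN at all 12 time points and 1 higher. The shares of all expressed loci were 20.4% and 13.0%. *RUNX2* and the *BGLAP* locus had mean log2 differences of -0.005 and -0.03. *COL1A1* had 128 ± 31.5 FPKM in DMSO and 33.9 ± 18.3 FPKM in 6AN, *SPARC* 323 ± 21.4 and 129 ± 28.97 FPKM, *ALPL* 6.41 ± 1.40 and 3.73 ± 0.65 FPKM, and *SPP1* 2.07 ± 0.79 and 4.00 ± 1.83 FPKM. The summed level of the 9 markers, most of it from *SPARC* and *COL1A1*, ranged from 428 to 581 FPKM in DMSO and from 140.4 to 313 FPKM in 6AN. The part of the markers in the levels of the members was not tested.

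**Figure D1:**
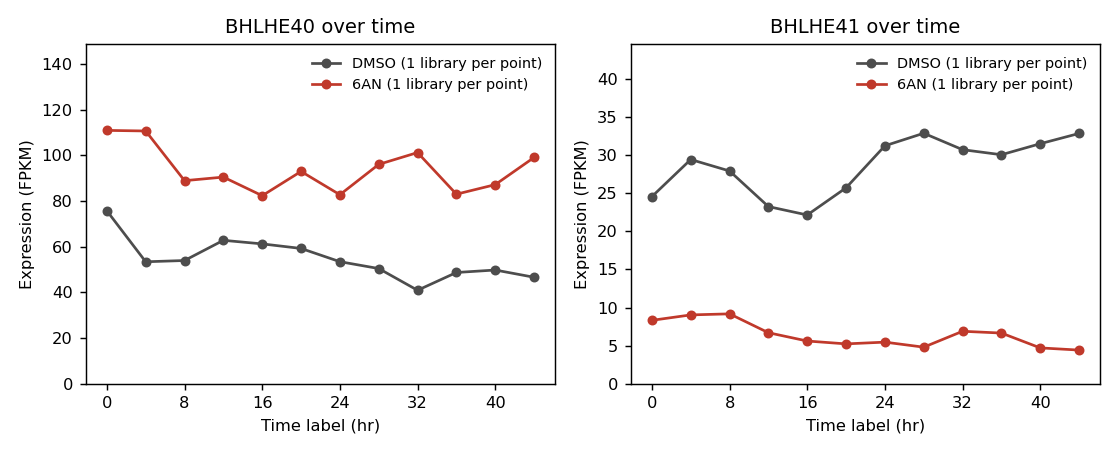
Expression in FPKM of *BHLHE40* (left) and *BHLHE41* (right) against the time label in hr, with 1 library for each point, grey for DMSO and red for 6AN. *BHLHE40* lies between 40.9 and 75.7 FPKM in DMSO and between 82.3 and 110.9 FPKM in 6AN, and *BHLHE41* lies between 22.1 and 32.9 FPKM in DMSO and between 4.42 and 9.17 FPKM in 6AN.

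The difference between conditions, which chose the members, was larger for *BHLHE41* than for *BHLHE40* at every time point. For *BHLHE40*, the ratio of 6AN to DMSO ran from 1.34 at 16 hr to 2.47 at 32 hr, and the ratio of the means was 1.71. On the log2(FPKM + 1) scale the mean difference was 0.78 ± 0.26 (SD over 12 time points), the 385th highest of the expressed loci. For *BHLHE41*, the ratio of DMSO to 6AN ran from 2.95 at 0 hr to 7.43 at 44 hr, and the ratio of the means was 4.44. Its mean log2 difference was -2.01 ± 0.42 (SD over 12 time points), the 52nd lowest.

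Of all expressed loci, 13.0% were higher in 6AN at all 12 time points, as *BHLHE40* was, and 20.4% were lower at all 12, as *BHLHE41* was. Ranges of the conditions that did not overlap were found for 5.89% of loci that were higher and 10.3% of loci that were lower. In counts, 1816 loci were higher at all 12 and 2854 lower, and 2311 and 2313 once all libraries were rescaled by their median ratio, under which the members kept their direction at all 12. The median log2 difference over expressed loci was -0.04. Because the members were chosen on this contrast, nothing is read from these shares.

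Both differences were of larger size in the last 6 time points than in the first 6. For *BHLHE40*, the mean log2 difference was 0.65 ± 0.22 from 0 to 20 hr and 0.91 ± 0.24 from 24 to 44 hr (SD, n = 6 each). For *BHLHE41*, it was -1.69 ± 0.24 and -2.34 ± 0.27 over the same time points. The mean level of *BHLHE40* was 61.0 and then 48.3 FPKM in DMSO, and 96.0 and then 91.5 FPKM in 6AN. That of *BHLHE41* was 25.5 and then 31.5 FPKM in DMSO, and 7.35 and then 5.49 FPKM in 6AN.

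**Figure D2:**
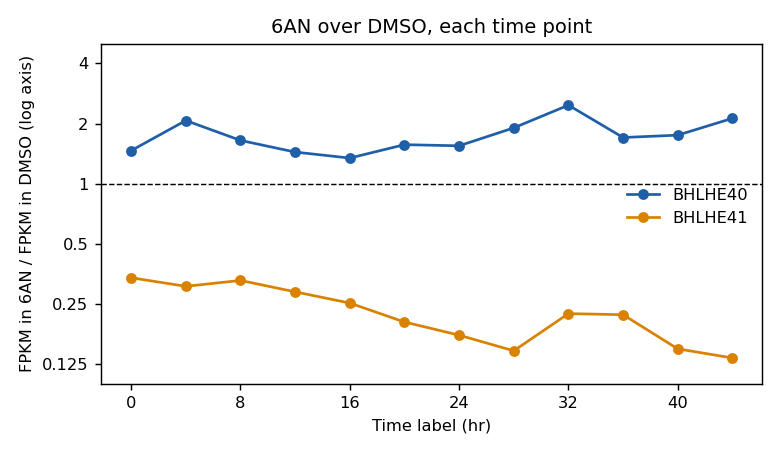
Ratio of FPKM in 6AN to FPKM in DMSO at each time label, on a log axis, for *BHLHE40* (blue) and *BHLHE41* (orange), with a dashed line at a ratio of 1. All 12 *BHLHE40* points lie above the line, between 1.34 and 2.47, and all 12 *BHLHE41* points lie below it, at their lowest at 44 hr.

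The balance of the paralogs differed between conditions more than their sum did. This follows from the choice of genes on opposite sides of the control, and the values are a description with no test. The ratio of *BHLHE40* to *BHLHE41* had a median of 1.76 in DMSO, with a lowest value of 1.33 at 32 hr and a highest of 3.08 at 0 hr. In 6AN it had a median of 14.7, with a lowest of 9.69 at 8 hr and a highest of 22.4 at 44 hr. The share of *BHLHE41* in the summed FPKM had a median of 36.2% in DMSO and of 6.38% in 6AN. The sum was 83.2 ± 6.59 FPKM in DMSO and 100.2 ± 10.9 FPKM in 6AN (SD, n = 12), and its ratio between conditions at the same time had a median of 1.17 and ranged from 1.04 to 1.51.

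Whether each gene drifted over the course was asked within each condition with Spearman's rho against time, at a threshold of p of at most 0.01 from 1000000 random orders (two-sided), with Benjamini-Hochberg adjustment over all 13979 expressed loci. *BHLHE41* fell in 6AN, with a rho of -0.76 (p = 0.00549, adjusted p = 0.0324). Falling trends at this threshold were found for 10.6% of expressed loci in 6AN, and rising ones for 9.96%. Without the library of 0, 4, 8, 12, 40, or 44 hr, p was between 0.0128 and 0.0228, so the call was lost in 6 of 12 leave-out series. It was also lost with libraries rescaled by the median ratio (rho -0.72, p = 0.0106).

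*BHLHE40* fell in DMSO, with a rho of -0.80 (p = 0.00245), and its adjusted p of 0.0508 did not reach 0.05. In DMSO, 4.52% of expressed loci fell and 4.23% rose at the same threshold. Without the library of 0 or of 28 hr the rho of *BHLHE40* was -0.75 with p = 0.0113, above the threshold. For *BHLHE41* in DMSO, rho was 0.72 (p = 0.0106, adjusted p = 0.115), and for *BHLHE40* in 6AN it was -0.26 (p = 0.416, adjusted p = 0.603), and neither passed. These p-values take the time points as exchangeable and measure only the spread between libraries of 1 course.

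No 24 hr rhythm was called for either paralog in either condition with a permutation rank test that compared the libraries, folded on 24 hr, with rising and falling shapes. The p was 0.798 for *BHLHE40* and 0.690 for *BHLHE41* in DMSO, and 0.200 for *BHLHE40* and 0.0574 for *BHLHE41* in 6AN, each with an adjusted p of 1. At p of at most 0.01 the test called 0.98% of expressed loci in DMSO and 0.98% in 6AN. At an adjusted p of 0.05 it called 0 loci in each condition, beside 703 loci in DMSO and 584 in 6AN at an unadjusted p under 0.05, and harmonic regression also called 0 in each. A p above the threshold does not show that a rhythm was absent. Without the 28 hr library, the p of *BHLHE41* in 6AN was 0.00405.

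With the drift in DMSO taken out, p was lower for both genes. With a linear trend removed before the rank test, p was 0.0454 for *BHLHE40* and 0.0182 for *BHLHE41* in DMSO. With the trend placed in a harmonic regression at 24 hr, a fit added after the data were seen, p was 0.0149 for *BHLHE40* and 0.00192 for *BHLHE41*, with adjusted p of 0.798 and 0.637. Such a fit had p of at most 0.01 for 1.28% of expressed loci in DMSO and 1.77% in 6AN. Its amplitudes on the log2 scale were 0.17 ± 0.056 for *BHLHE40* and 0.19 ± 0.045 for *BHLHE41* (jackknife SE over time points). The fitted peaks lay at 18.4 ± 1.14 hr for *BHLHE40* and 3.68 ± 0.56 hr for *BHLHE41* (jackknife SE).

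Over the 12 time points of 6AN, harmonic regression with a trend had a p of 0.241 for *BHLHE40* and of 0.0703 for *BHLHE41*, with adjusted p of 0.844 and 0.735. The fitted peaks were 2.38 ± 2.28 hr for *BHLHE40* and 8.14 ± 1.97 hr for *BHLHE41* (jackknife SE). These fits also held the period at 24 hr, so the peak hours would not describe a rhythm of a longer period. As no rhythm passed the adjustment, these hours describe the courses and were not compared between conditions.

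The paralogs were negatively correlated over the whole course in DMSO. Pearson's r between their log2(FPKM + 1) values was -0.78 (permutation p = 0.00166, adjusted over the 2 conditions 0.00332) and Spearman's rho was -0.79 (permutation p = 0.00325, adjusted 0.00650), over 12 time points. Without the 0 and 32 hr libraries, which were farthest from the median of *BHLHE40*, r was -0.92. With a linear trend removed from both genes, r was -0.58 (permutation p = 0.0459) and rho was -0.76 (permutation p = 0.00584). The permutations take the time points as exchangeable. They cannot tell a direct relation from opposite drifts, and rho against time was -0.80 for *BHLHE40* and 0.72 for *BHLHE41*. The parts of the course were also taken apart, a check added after the data were seen. Over the first 6 time points r was -0.61 (exact permutation p = 0.188), of the same sign as over the whole course but short of the threshold with 6 libraries. Over the last 6, where *BHLHE41* stayed between 30.0 and 32.9 FPKM, r was 0.20 (exact permutation p = 0.750), so the negative relation was not seen there.

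In 6AN, r was 0.39 (permutation p = 0.207, adjusted 0.207) and rho was 0.27 (permutation p = 0.403, adjusted 0.403) over 12 time points. Without the 0 and 4 hr libraries, which held the highest *BHLHE40* levels, r was -0.15 (permutation p = 0.692). The difference between the correlations of the conditions was not tested.

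**Figure D3:**
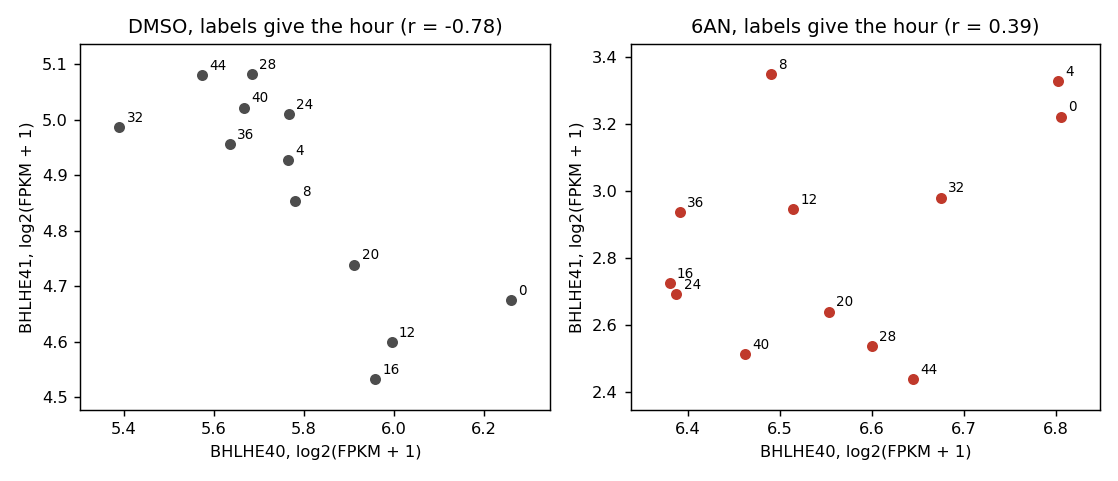
*BHLHE41* against *BHLHE40*, both as log2(FPKM + 1), in DMSO (left) and 6AN (right), with 1 point for each library and its time label in hr beside it. In DMSO the points run from upper left to lower right with r = -0.78, and the 6 libraries from 24 hr on sit together at high *BHLHE41*. In 6AN r = 0.39, and the 0 and 4 hr libraries lie apart at high *BHLHE40*.

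BMAL1 and CLOCK shared sites at both genes, with more at *BHLHE40*. The shared BMAL1/CLOCK list held 147 sites in DMSO and 439 in 6AN. It named 3 sites after *BHLHE40* in each condition, and 1 site after *BHLHE41* in DMSO and 2 in 6AN. In the 6AN list, *BHLHE40*, *NR1D1*, and *RNA28S5* were the genes with 3 sites. Site signals are tags in 1000 bp scaled to 10000000 tags per library, and their intervals are exact Poisson 95% intervals that cover counting error only.

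The member site with the most CLOCK signal in both conditions was intergenic, downstream of *BHLHE41* (chr12:26114032-26115032, 10538 bp from the start). Its CLOCK signal was 191 (151 to 239) in DMSO and 341 (289 to 399) in 6AN, the 10th and 11th highest of the 439 sites. The ratio of 6AN to DMSO was 1.78 (1.35 to 2.37). BMAL1 signal there was 117 in DMSO and 104 in 6AN, with a ratio of 0.89 (0.65 to 1.21) that spans no change.

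The *BHLHE40* promoter site (chr3:4978646-4979646, -266 bp from the start), which holds the printed window with its CACGTG, had the next highest CLOCK signal. It was 167 (129 to 211) in DMSO and 286 (239 to 339) in 6AN, a ratio of 1.71 (1.27 to 2.33). BMAL1 was 106 in DMSO and 144 in 6AN, where it was the highest of the member sites, a ratio of 1.36 (1.01 to 1.83). H3K9ac was 110.0 in DMSO and 161 in 6AN, and H3K4me3 was 175 and 229, and both of these ratios had intervals that included 1.

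The *BHLHE41* promoter site (chr12:26124614-26125614, -44 bp from the start), which also holds its printed window, was weaker and was in the list of 6AN but not of DMSO. CLOCK signal there was 25.7 (12.6 to 46.7) in DMSO, from 10.5 tags, and 59.3 (39.1 to 86.3) in 6AN, from 27 tags, a ratio of 2.30 (1.09 to 5.24). BMAL1 was 18.1 in DMSO and 25.3 in 6AN, a ratio of 1.40 (0.67 to 3.03). Since the site was listed only through 6AN, its choice favours ratios above 1 for CLOCK and BMAL1. H3K4me3, a mark of active promoters, was 183 in DMSO and 151 in 6AN, a ratio of 0.83 (0.57 to 1.19) whose interval included 1. H3K9ac, a mark of active chromatin, was 63.9 and 75.5, a ratio of 1.18 (0.56 to 2.80).

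Beyond the *BHLHE40* gene lay 2 intergenic sites. At chr3:4986508-4987508, 7596 bp after the start, CLOCK was 35.6 in DMSO and 83.5 in 6AN, a ratio of 2.35 (1.25 to 4.64). At chr3:5026113-5027113, 47201 bp after the start, CLOCK was 33.1 and 61.5, a ratio of 1.86 (0.94 to 3.86). BMAL1 ratios were 1.14 (0.64 to 2.03) and 0.81 (0.43 to 1.51). A further site, -29709 bp from the start of *BHLHE40-AS1* and named after it, belongs to neither member and had CLOCK signals of 131 and 181.

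Across the 5 member sites, CLOCK was higher in 6AN by at least 1.5-fold at all 5, as it was at 83.1% of the 439 sites of 6AN. BMAL1 reached 1.5-fold at 0 of 5, beside 41.5% of all sites. The median log2 change was 0.87 for CLOCK at member sites and 1.10 at all 439 sites, and 0.18 and 0.46 for BMAL1. Sites called in 1 condition are favoured to have more signal there, and the 439 were called in 6AN. Over the 147 sites called in DMSO, the medians were 0.86 for CLOCK and 0.22 for BMAL1. All member sites but the *BHLHE41* promoter were in both lists. Input was higher in 6AN at all 5 member sites, with ratios from 1.20 to 1.99 and a median log2 change of 0.83 beside 0.37 at all sites, from 7 to 16 tags per site in 6AN. With the change of input subtracted, the median change at member sites was 0.38 for CLOCK and -0.53 for BMAL1. For CLOCK it was -0.007 at the intergenic *BHLHE41* site and -0.065 at the *BHLHE40* promoter, the sites with the most CLOCK signal. It was 0.63 at the *BHLHE41* promoter, and 0.38 and 0.64 at the intergenic *BHLHE40* sites at 7596 and 47201 bp. The part of input in the signals was not tested. With 1 library for each antibody and condition, there was no replicate check of any of these ratios.

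**Figure D4:**
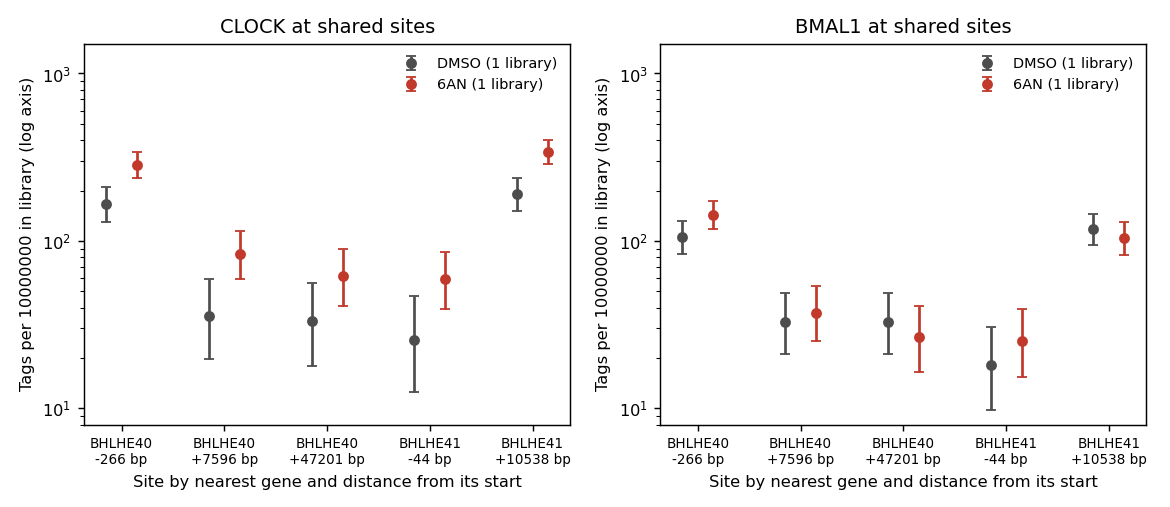
ChIP-seq signal in tags scaled to 10000000 tags per library, on a log axis, for CLOCK (left) and BMAL1 (right) at the 5 sites named after the members, each given with its distance from the gene's start in bp, in DMSO (grey) and 6AN (red). Bars are exact Poisson 95% intervals of 1 library each. CLOCK is higher in 6AN at all 5 sites, and BMAL1 is higher at 3 and lower at 2.

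Peaks called in each library, which the authors merged into 4001 intervals, placed 4 intervals within 100000 bp of the *BHLHE40* start and 2 within that distance of the *BHLHE41* start. The *BHLHE40* intervals centred at -291, 7583, and 47209 bp held a peak in all 4 BMAL1 and CLOCK libraries. The fourth, at 44047 bp, held a BMAL1 peak in DMSO only. For *BHLHE41*, the interval at 10502 bp held a peak in all 4 libraries, and the interval at the promoter, at -77 bp, held BMAL1 and CLOCK peaks in 6AN and neither in DMSO. Over all intervals, CLOCK peaks numbered 289 in DMSO and 1369 in 6AN, and BMAL1 peaks 1577 and 2314.

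Among the neighbours of *BHLHE41* within 100000 bp, *SSPN*, which encodes sarcospan, had 1.99 ± 0.47 FPKM in DMSO and 0.69 ± 0.12 FPKM in 6AN (SD, n = 12), lower at all 12 time points. On the other side, *RASSF8*, a Ras association domain gene, was higher at all 12, with 8.77 ± 0.95 and 12.05 ± 1.01 FPKM. Its antisense gene *RASSF8-AS1* was higher at 6 of 12, with 5.18 and 5.23 FPKM. Among all expressed loci, 20.4% were lower and 13.0% higher at all 12.

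Other genes of the clock and of the bHLH class were described from lists chosen with results of these data known, by how many of the expressed members were higher or lower in 6AN at all 12 time points, beside the 13.0% and 20.4% of all expressed loci. Of 9 expressed clock genes with E-boxes, 1 was higher at all 12 and 0 lower, with a median log2 difference of 0.43, and *CRY2* was also higher at all 12 once libraries were rescaled by the median ratio over both tables. *PER1*, a repressor of BMAL1/CLOCK, had 15.3 FPKM in DMSO and 31.4 FPKM in 6AN. *NR1D1*, which encodes REV-ERBα, a repressor of *ARNTL*, had 16.3 ± 4.40 FPKM in DMSO and 25.5 ± 9.58 FPKM in 6AN, and was higher at 9 of 12.

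Of 7 expressed genes of the activators and of the ROR and NFIL3 arm, 3 were higher and 2 lower at all 12. *CLOCK* had 7.995 ± 0.58 FPKM in DMSO and 6.01 ± 0.68 FPKM in 6AN, and *NPAS2*, its paralog, 29.3 ± 6.18 and 16.7 ± 1.63 FPKM. *RORA* and *RORB*, activators of *ARNTL*, and *NFIL3*, a repressor of D-box genes, were higher, with log2 differences of 0.69, 0.55, and 0.63. *ARNTL*, which encodes BMAL1, was higher at 6 of 12 and lower at 6, with 7.52 and 7.35 FPKM.

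The HES and HEY proteins are the closest relatives of the DEC proteins in structure, with the same Orange domain. Of 11 such genes 4 were expressed, and 2 of these were higher at all 12 time points, namely *HEY1*, at 1.79 ± 0.50 FPKM in DMSO and 4.66 ± 1.15 FPKM in 6AN, and *HES6*, at 3.38 ± 1.23 and 5.73 ± 1.14 FPKM. *HES1*, the most abundant of them, had 46.4 ± 4.99 and 38.8 ± 6.56 FPKM and was lower at 9 of 12. ID proteins lack a basic region and hold E proteins off DNA, and of the 7 genes of both kinds 4 were lower at all 12 and 0 higher. *ID3* had 23.1 ± 2.11 and 11.97 ± 2.28 FPKM, and *TCF4*, an E protein, 7.72 ± 0.57 and 3.66 ± 0.48 FPKM. With the same rescaling 3 were lower and 1 higher at all 12, as *ID1* was lower at 11 and *TCF3*, another E protein, was higher at 12.

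Of 15 other bHLH factors that bind CACGTG, 5 were higher and 2 lower at all 12. *MYC* had 44.7 ± 7.64 FPKM in DMSO and 98.7 ± 9.71 FPKM in 6AN. *MXI1*, *MNT*, and *MXD1*, repressors that like MYC pair with MAX, had log2 differences of 0.66, 0.50, and 0.85, and the fifth was *MITF* at 0.34. *SREBF1*, which drives lipid synthesis, had 25.3 ± 3.15 and 10.8 ± 1.47 FPKM, and the other gene lower at all 12 was *MXD3*. Rescaled, 6 were higher at all 12, with *MAX* added, and 2 lower. Counts over 12 time points are from separately normalized tables and carry no test.

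Of 13 expressed hypoxia targets, 4 were higher and 3 lower at all 12, with a median log2 difference of 0.18. *VEGFA*, an angiogenic factor, had 31.8 ± 6.85 FPKM in DMSO and 61.2 ± 12.9 FPKM in 6AN, and *NDRG1*, *BNIP3*, and *KDM3A* were also higher. *LDHA*, the lactate dehydrogenase of glycolysis, had 354 ± 40.4 and 191 ± 18.7 FPKM, and *PFKFB4* and *P4HA1* were also lower.

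**Figure D5:**
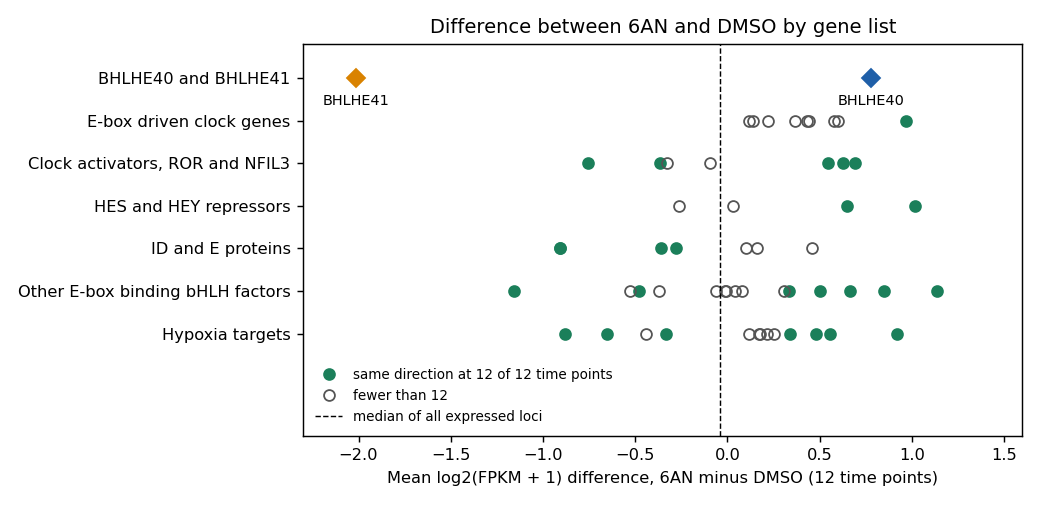
Mean difference in log2(FPKM + 1) between 6AN and DMSO over 12 time points, with 1 point for each expressed gene of a list and diamonds for the members. Filled points had the same direction at 12 of 12 time points, and the dashed line marks the median of all expressed loci, -0.04. *BHLHE41* at -2.01 lies below every gene of the 6 lists drawn, which leave out the osteoblast markers with *COL1A1* at -2.02, and *BHLHE40* at 0.78 has genes on both sides of it.

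The genes whose courses were most like those of the members were found by the lower of the 2 Pearson correlations, in DMSO and in 6AN, over 12 time points each and among 13571 expressed single-gene loci. For *BHLHE40* these were *TNS1* (0.76 in DMSO and 0.79 in 6AN), *INTS5* (0.75 and 0.72), *ENO3* (0.75 and 0.72), *TRAF1* (0.73 and 0.72), and *PCYT2* (0.71 and 0.78). Their log2 differences between 6AN and DMSO, in the same order, were -0.72, 0.14, -0.61, -0.93, and -0.07, beside 0.78 for *BHLHE40*. For *BHLHE41* they were *TCN1* (0.76 and 0.73), *GJA1* (0.72 and 0.74), *NR4A2* (0.71 and 0.71), *FAM72B* (0.70 and 0.82), and *LTBP3* (0.70 and 0.70). Their log2 differences were -2.22 for *TCN1*, which encodes a vitamin B12 carrier, -0.80 for *GJA1*, -0.06 for *NR4A2*, -0.48 for *FAM72B*, and 0.14 for *LTBP3*, beside -2.01 for *BHLHE41*. These correlations share libraries and are the highest of many, and no p is given.

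The courses of the members were also set beside those of clock genes. In DMSO, *BHLHE41* had its highest correlation among the 16 expressed clock genes with *DBP*, an output gene activated through E-boxes, at 0.73, and its correlation with *DBP* in 6AN was 0.69. In 6AN, *NR1D1* was highest for both members, at 0.79 with *BHLHE41* and 0.73 with *BHLHE40*, beside 0.05 and 0.07 in DMSO. *RORA* correlated with *BHLHE40* at -0.85 and with *BHLHE41* at 0.71 in DMSO, and at -0.11 and -0.13 in 6AN. *NFIL3* correlated with *BHLHE41* at -0.85 in 6AN and -0.43 in DMSO. These values are over 12 time points that share libraries and drifts, and are descriptions.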

How the data were processed

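RNA-seq and ChIP-seq were performed in *Bmal1*:*luc* U2OS cells. The authors deposited FPKM for each locus, with DMSO and 6AN normalized in separate tables, and ChIP-seq signal as tags in 1000 bp around each shared BMAL1/CLOCK site. The HOMER score of each peak, also deposited, was read only for whether a peak was present. The submitters' processing notes name TopHat, Cufflinks, Bowtie, Bowtie2, HOMER, and hg38, with no versions. Depth is known only relative to other libraries for FPKM, and as 1409550 to 33273100 tags for ChIP-seq.

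All steps ran in Python 3.11.15 (SciPy 1.17.1, pandas 2.3.3, NumPy 2.4.6), with figures from matplotlib 3.10.9. A pseudocount of 1 was added before logarithms. Rhythm and trend tests used 1000000 random orders within a table, or 200000 with a time point left out, and correlations 100000. Tags were recovered from signal and library totals, and ratio intervals are conditional binomial. The methods were tested on simulated data. RAIN itself was not run.

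Members and gene lists were chosen with earlier results of these data known. Genes named were the members, genes of the lists, the 5 loci most like each member, loci near them, and all sites named after them.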

Additional observations from a re-analysis of the deposited data

How the results depend on the processing

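The differences between 6AN and DMSO kept their direction under a pseudocount of 0.1 (0.79 for *BHLHE40*, -2.16 for *BHLHE41*), under rescaling of all libraries by the median ratio (0.84 and -1.96), and without any 1 time point (0.73 to 0.81 and -2.06 to -1.96). That rescaling, applied to all loci after the data were seen, moved the loci that were higher at all 12 time points from 1816 to 2311 and those lower from 2854 to 2313, a share of higher loci of 38.9% and then 49.98%. With loci above 0 in all 24 libraries in place of the filter, the counts were 1860 and 2929. The falling trend of *BHLHE41* in 6AN missed the threshold under rescaling (rho -0.72, p = 0.0106), and with 1 time point left out its rho ran from -0.86 to -0.69. That of *BHLHE40* in DMSO ran from -0.88 to -0.75. The rhythm p of *BHLHE41* in 6AN ran from 0.00405 to 0.204 with 1 time point left out, and that in DMSO was 0.00192 with a linear trend in a harmonic fit. The DMSO correlation of the paralogs ran from -0.83 to -0.76 with 1 time point left out. It was -0.61 over the first 6 time points and 0.20, of opposite sign, over the last 6, with fewer libraries in each. Subtracting the change of input took the median CLOCK change at member sites from 0.87 to 0.38 and reversed the median of BMAL1 from 0.18 to -0.53. The cause was not tested. The differences pair the libraries of the conditions by time label and carry no test, as the members were chosen on them. No replicate block could be fitted, since each condition and time holds 1 library. Depth limits the ChIP-seq ratios, with input at 7 to 16 tags per member site in 6AN, as does having 1 library for each.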
